A study of Mus musculus with 24 samples.

Results

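Inguinal white fat of FMRKO mice treated with corticosterone was set against that of FMRKO mice on a high-fat diet, with 4 RNA-seq libraries in each group, or 8 of the 24 libraries of the study. They were chosen by labelled genotype and treatment alone. FMRKO (AdipoqCre+, MRflox/flox) stands for fat-specific mineralocorticoid receptor knockout: in both groups Nr3c2, which codes for that receptor, was floxed on both alleles, and the mice had Cre recombinase under the adiponectin promoter. That promoter is active in fat cells, so stromal, vascular and immune cells of the pad keep the intact gene. All mice were male; the sources used here do not give their ages. The same contrast in control mice, which have the floxed alleles and no Cre, served as a comparison (4 corticosterone and 4 high-fat diet libraries). The sources used here do not give the corticosterone dose or how long it lasted, the composition or duration of the high-fat diet, or what the corticosterone mice ate. The study also has chow-fed FMRKO and control mice, 4 libraries each, which entered only the shared scaling, gene filter and estimate of the spread. The contrast itself holds no untreated group. A gene higher with corticosterone than on the high-fat diet may thus have been raised by the hormone, lowered by the diet, or both.

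Corticosterone is the main glucocorticoid of the mouse. It enters fat cells, where the enzyme 11β-hydroxysteroid dehydrogenase type 1 regenerates it from its inactive form, and it binds the glucocorticoid receptor and, with higher affinity, the mineralocorticoid receptor. The bound receptors enter the nucleus and switch target genes on or off. Glucocorticoids in excess and a high-fat diet both enlarge fat pads, but glucocorticoids are also known to restrain inflammation and matrix production. Fat supplied in the diet is stored with less need for synthesis from carbohydrate, while desaturases adjust the saturation of what is stored.

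Total counts were 23275622 to 34799132 in the corticosterone libraries and 26431823 to 30741641 in the high-fat diet libraries. Levels are given in CPM, the share of a library's counts scaled to a common depth by TMM, given for libraries 1, 2, 3 and 4 of a group in that order. The targeted gene Nr3c2 lies on chromosome 8 (GRCm38, 76899442 to 77245012) and had 10.7, 7.73, 12.2 and 11.7 CPM with corticosterone, against 14.3, 15.7, 15.4 and 12.7 CPM on the high-fat diet. Each corticosterone library lay below each high-fat diet library, but the difference did not pass the test (log2 fold change -0.45 ± 0.20, standard error, adjusted p = 0.132). Reads from exons that Cre leaves in place, and from cells other than fat cells, are part of these counts. The adipocyte hormone gene Adipoq (1608, 1445, 1677 and 1447 CPM in the corticosterone libraries and 1275, 1529, 1498 and 1012 CPM in the high-fat diet libraries) and the lipid carrier gene Fabp4 were abundant in all 8 libraries.

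Some libraries stood apart from their group. High-fat diet libraries 1 and 4 were the highest of the 8 for all 19 lymph node lymphocyte markers: without the immunoglobulin gene Ighm, which is high everywhere, they summed to 9.17, 97.5, 88.3 and 6.04 CPM with corticosterone, against 306.7, 23.6, 26.3 and 785.9 CPM on the high-fat diet. Corticosterone libraries 3 and 4 were the highest for 12 of 14 epithelial markers. The list summed to 31, 27.5, 126 and 77.1 CPM with corticosterone, against 18.3, 19.6, 21.8 and 14.1 CPM on the high-fat diet. The prolactin receptor gene Prlr, given further on, made up most of the sum in corticosterone libraries 1 and 2 but not in the others. Without Prlr, these libraries summed to less than each high-fat diet library. All 11 adipocyte markers were lowest, within the high-fat diet group, in library 4, the library richest in lymph node transcripts, with sums of 29567, 27978, 25650.4 and 27354 CPM with corticosterone, against 22651, 26289, 27187 and 16140.2 CPM on the high-fat diet. The globin and other red cell genes summed to 3224, 2818, 3741 and 3458 CPM with corticosterone, against 2257, 1191, 2597 and 751 CPM on the high-fat diet, and each corticosterone library exceeded each high-fat diet library. Corticosterone library 2 stood apart for interferon-stimulated genes, described further on. The part of these transcripts in the results was not tested. Results that lose their call without high-fat diet libraries 1 and 4, or without corticosterone libraries 3 and 4, are named where they occur. Calls lost only without both pairs are not named, apart from that on Prlr. Of 205 genes named as called, 89 lost the call without both pairs. All these fits hold fewer libraries, so a call can be lost where the log2 fold change hardly moves.

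**Figure D1:**
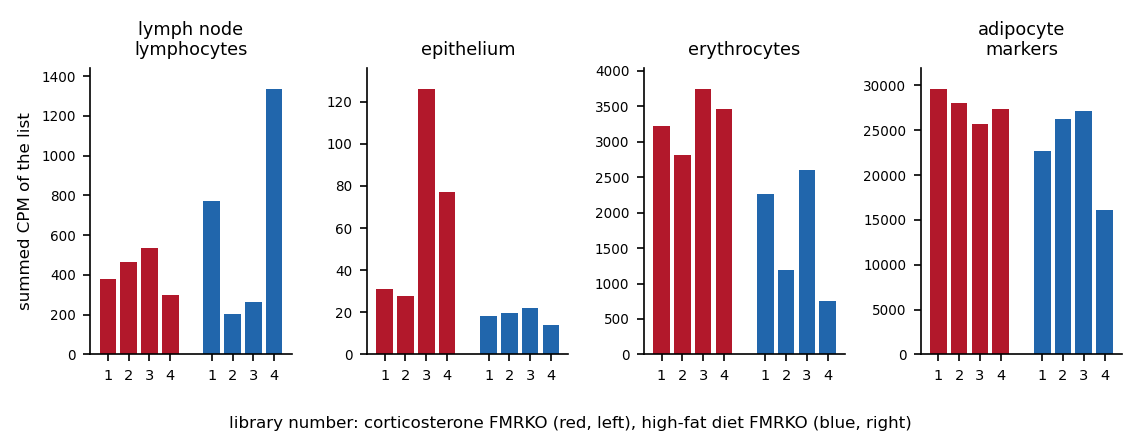
Summed TMM-normalised CPM (y axis, from 0) of 4 marker lists in each FMRKO library (x axis, library number), with corticosterone libraries in red on the left and high-fat diet libraries in blue on the right of each panel. The lymph node sum, here with Ighm, peaks at 1334 CPM in high-fat diet library 4. The epithelium sum, here with Prlr, peaks at 126 CPM in corticosterone library 3. The adipocyte sum is lowest, at 16140.2 CPM, in high-fat diet library 4.

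The direct contrast asks how hormone excess and dietary fat differ in their effect on this depot when fat cells lack the mineralocorticoid receptor. Of 19717 genes tested, 1434 were higher (7.27%) and 1674 lower (8.49%) with corticosterone than on the high-fat diet, 15.8% in all, with a median log2 fold change over all genes of -0.04. At least 2-fold, 392 were higher (1.99%) and 803 lower (4.07%). At least 8-fold, the counts were 49 and 75. Each corticosterone library exceeded each high-fat diet library in 12.9% of genes, and each lay below in 12.1%. Without high-fat diet libraries 1 and 4 the counts were 624 higher and 1127 lower, of which 584 and 1059 were among the calls above. Leaving out corticosterone libraries 3 and 4 gave 1083 and 928, of which 1028 and 866 were among them. Values after a gene are its log2 fold change of corticosterone over high-fat diet ± standard error with the Benjamini-Hochberg adjusted p of edgeR's quasi-likelihood test over all tested genes. A gene is called higher or lower where that p is under 0.05. Gene lists and their members were chosen with earlier results of these data known. Their shares of called genes, set against those of all genes, are therefore descriptions and not tests. In lists with a share for 1 direction only, the other direction held at most 11.1% of members. Leaving out 1 library gave 1251 to 1639 genes higher and 1184 to 1480 lower in all. Counts of list members in smaller fits stand against the counts of all genes in those fits, which also changed. The labels do not say that the libraries come from separate mice, so the p-values speak of the spread among libraries, which may be technical. In bulk tissue, fewer cells of a type and less RNA per cell cannot be told apart.

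**Figure D2:**
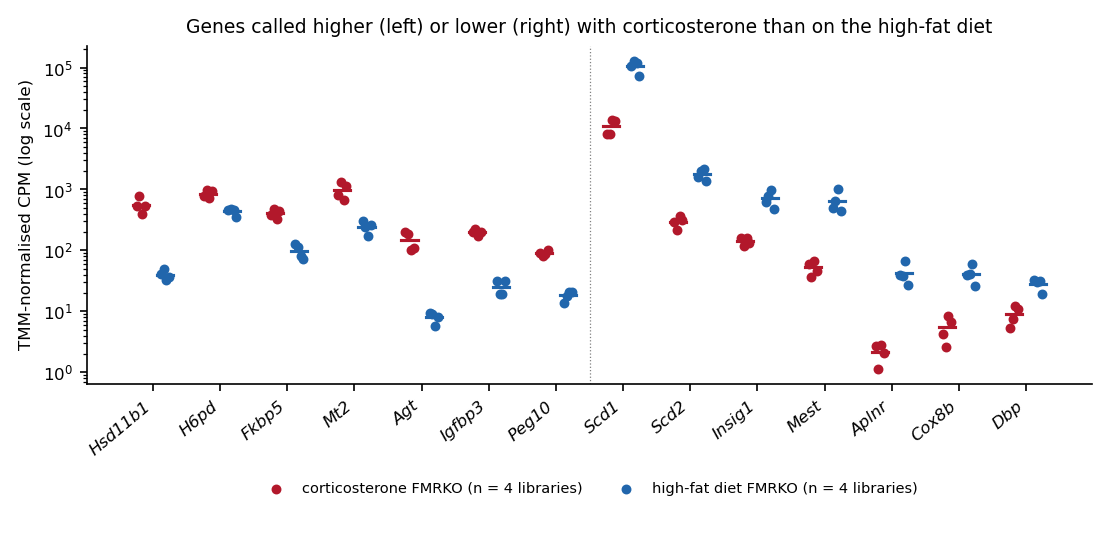
TMM-normalised CPM (y axis, log scale) of 14 genes in the 4 corticosterone FMRKO libraries (red, left of each pair) and the 4 high-fat diet FMRKO libraries (blue), 1 point per library, with a bar at the group mean. The 7 genes left of the dotted line were called higher and the 7 right of it lower with corticosterone, and in none of the 14 do the groups overlap.

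The pair of enzymes that regenerates corticosterone inside cells was higher with corticosterone. Hsd11b1, which codes for 11β-hydroxysteroid dehydrogenase type 1 (ENSMUSG00000016194, GRCm38 chromosome 1, 193221630 to 193264054, minus strand), had 536, 796, 389 and 538 CPM with corticosterone and 41.4, 49.4, 33.2 and 36.5 CPM on the high-fat diet. All corticosterone libraries lay far above all high-fat diet libraries, a 14.1-fold difference (log2 fold change 3.81 ± 0.27, adjusted p = 3.7e-08). H6pd, which supplies that enzyme with its cofactor in the endoplasmic reticulum, had 778, 980, 725 and 951 CPM with corticosterone, against 454, 486, 468 and 360 CPM on the high-fat diet, again without overlap (log2 fold change 0.96 ± 0.15, adjusted p = 1.8e-04). The opposing enzyme gene Hsd11b2, which inactivates corticosterone, was low at 2.91, 2.56, 1.88 and 3.86 CPM in the corticosterone libraries and 1.93, 3.1, 2.16 and 2.26 CPM in the high-fat diet libraries, and the groups overlapped (log2 fold change 0.25 ± 0.27, adjusted p = 0.581). Nr3c1, the glucocorticoid receptor, was at 169.5, 139, 168 and 141 CPM with corticosterone and 149, 143, 152 and 131 CPM on the high-fat diet and did not pass (log2 fold change 0.11 ± 0.12, adjusted p = 0.584). Of the 15 tested receptors, enzymes, chaperones and coregulators of the corticosteroid system, 3 were higher and 0 lower, or 20% against 7.27% of all genes tested, the last of the 3 being the coactivator gene Ncoa1 (log2 fold change 0.31 ± 0.08, adjusted p = 0.012). The list's median log2 fold change was 0.11, against -0.04 over all genes. Omitting high-fat diet libraries 1 and 4 lost the call on Ncoa1 (adjusted p = 0.178).

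Genes known to respond to glucocorticoids were higher with corticosterone in part only. Of 26 tested, 9 were higher (34.6%, against 7.27% of all genes) and 1 was lower, with a median log2 fold change of 0.59, and in 12 of them (46.2%, against 12.9% of all genes) the corticosterone libraries all exceeded the high-fat diet libraries. Fkbp5, a co-chaperone that restrains the glucocorticoid receptor, had 388, 471, 328 and 452 CPM with corticosterone, against 126, 112, 81.8 and 73 CPM on the high-fat diet, with groups far apart (log2 fold change 2.06 ± 0.32, adjusted p = 1.7e-04). Tsc22d3, the anti-inflammatory factor GILZ, had 327, 453, 331 and 433 CPM in the corticosterone libraries and 214, 198, 180.4 and 185 CPM in the high-fat diet libraries (log2 fold change 0.99 ± 0.25, adjusted p = 0.008). The groups did not overlap. Mt2, which codes for a metal-binding metallothionein, had 797, 1304, 678 and 1154 CPM with corticosterone and 303, 238, 172 and 258 CPM on the high-fat diet (log2 fold change 2.02 ± 0.44, adjusted p = 0.003). Its neighbour Mt1 had a log2 fold change of 1.99 ± 0.33 (adjusted p = 2.8e-04). The sulfotransferase gene Sult1a1 (1.36 ± 0.26), the transcription factor genes Klf15 (0.93 ± 0.27) and Klf9 (0.77 ± 0.21), the glutamine synthetase gene Glul (0.87 ± 0.24) and the cell cycle inhibitor gene Cdkn1a (0.95 ± 0.27) were also higher by these log2 fold changes (adjusted p = 9.5e-04, 0.019, 0.015, 0.017 and 0.019). The 1 lower member was Nfkbia, an inhibitor of NF-κB (log2 fold change -0.55 ± 0.16, adjusted p = 0.024). Other classic targets did not pass. Per1, a clock gene with a known glucocorticoid response, had 127, 208, 146 and 205 CPM with corticosterone, against 165, 153, 119 and 114 CPM on the high-fat diet (log2 fold change 0.32 ± 0.29, adjusted p = 0.497). Sgk1 had 43.8, 73, 39 and 63.5 CPM in the corticosterone libraries and 59.4, 68.5, 59.2 and 54.3 CPM in the high-fat diet libraries. In both the groups overlapped. Dusp1, a phosphatase that shuts off MAP kinases, and Zbtb16, a transcription factor, had log2 fold changes of 0.26 ± 0.24 and 0.84 ± 0.35 (adjusted p = 0.504 and 0.108). Without high-fat diet libraries 1 and 4, the list held 4 higher members and 0 lower ones, against 624 and 1127 over all genes. The call on Tsc22d3, Klf15, Klf9, Glul, Cdkn1a and Nfkbia was lost without high-fat diet libraries 1 and 4 (adjusted p = 0.053 to 0.315), as was that on Klf15, Klf9, Cdkn1a and Nfkbia without corticosterone libraries 3 and 4 (adjusted p = 0.054 to 0.182). Without high-fat diet libraries 1 and 4 the log2 fold changes were 1.03 (Tsc22d3), 0.97 (Klf15), 0.76 (Klf9), 0.78 (Glul), 0.71 (Cdkn1a) and -0.36 (Nfkbia). A single library left out ended the call on Cdkn1a (high-fat diet 4) and Nfkbia (corticosterone 1, 3 or 4 or high-fat diet 1 or 4), with an adjusted p of up to 0.127.

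The promoter of Sgk1, the serum- and glucocorticoid-regulated kinase gene, is shown because it alone among the listed genes holds the textbook element of the glucocorticoid receptor. That element, AGAACA and TGTTCT with 3 bases between them, reads alike on both strands. It lay in the window from 250 bases before to 50 after the start in 1 of 23 list members with a RefSeq promoter, and in 3 of 27025 genes in all (0.0111%). That member was Sgk1 (RefSeq, GRCm38.p6, chr10:21993640-21993939, plus strand), with the match in capitals starting at position -189 from the start.
Sgk1: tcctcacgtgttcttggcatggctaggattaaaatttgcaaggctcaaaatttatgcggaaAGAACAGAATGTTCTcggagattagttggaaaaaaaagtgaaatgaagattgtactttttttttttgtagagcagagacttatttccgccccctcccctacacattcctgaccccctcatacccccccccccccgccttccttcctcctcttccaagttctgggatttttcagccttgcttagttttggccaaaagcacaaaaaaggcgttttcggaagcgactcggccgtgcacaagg
Its level did not pass the test (log2 fold change -0.14 ± 0.24, adjusted p = 0.749), and no match was searched for outside the window.

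The largest differences among protein-coding genes that kept their call without high-fat diet libraries 1 and 4 and without corticosterone libraries 3 and 4, with no overlap between groups and a mean of at least 5 CPM in the higher group, were in the following genes, not all in order of size. Hspb7, a small heat shock protein gene, had 292, 405, 139 and 269.6 CPM with corticosterone and 3.02, 5.2, 2.2 and 2.54 CPM on the high-fat diet, an 85.5-fold difference (log2 fold change 6.42 ± 0.61, adjusted p = 1.0e-06). Cpne9, a calcium-dependent phospholipid-binding protein gene, had 39.4, 87.9, 31.4 and 48.3 CPM with corticosterone, against 1.55, 1.16, 0.691 and 0.628 CPM on the high-fat diet (log2 fold change 5.68 ± 0.44, adjusted p = 6.5e-08). Hif3a, a hypoxia-inducible factor subunit, had 40.7, 91.2, 41.8 and 66.4 CPM in the corticosterone libraries and 3.62, 2.54, 1.81 and 2.23 CPM in the high-fat diet libraries (log2 fold change 4.55 ± 0.49, adjusted p = 3.4e-06). In all 3 genes corticosterone library 2 was the highest, and the lowest corticosterone library was still many times the highest high-fat diet library. The potassium channel genes Kcnt1 and Kcnd3 (4.43 ± 0.51 and 3.57 ± 0.37), the melanocortin receptor gene Mc5r (3.55 ± 0.48), the chromatin protein gene Hmga2 (4.6 ± 0.83) and the cytochrome P450 gene Cyp2b10 (3.79 ± 0.38) had log2 fold changes above 3. The same held for Egfem1 (4.39 ± 0.84), the microtubule-associated protein gene Map7d2 (3.55 ± 0.58), the translation repressor gene Eif4ebp3 (3.29 ± 0.39) and Prrg3, a membrane protein gene with a Gla domain (3.2 ± 0.22). Their adjusted p-values ran from 3.7e-08 (Prrg3) to 0.001 (Egfem1).

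Agt, which codes for angiotensinogen, the precursor of the angiotensins that drive aldosterone release, had 204, 186, 101 and 108 CPM with corticosterone and 9.39, 9.07, 5.87 and 8.19 CPM on the high-fat diet. Even the lowest corticosterone library held over 10 times the level of the highest high-fat diet library (log2 fold change 4.2 ± 0.55, adjusted p = 2.3e-05). It was 1 of 3 higher members (23.1%, against 7.27% of all genes) among 13 tested genes linked to the mineralocorticoid receptor. The others were Tsc22d3, given above, and the epithelial sodium channel subunit gene Scnn1a, with 2.14, 1.81, 6.41 and 4.46 CPM with corticosterone, against 1.97, 1.29, 2.12 and 1.04 CPM on the high-fat diet (log2 fold change 1.21 ± 0.38, adjusted p = 0.034). Scnn1a was high in corticosterone libraries 3 and 4, the ones rich in epithelial markers, and the other libraries overlapped. Sgk1 did not pass, and the list's median was -0.12. With high-fat diet libraries 1 and 4 left out, Tsc22d3 and Scnn1a no longer passed (adjusted p = 0.058 to 0.194), nor did Scnn1a without corticosterone libraries 3 and 4 (adjusted p = 0.650). Calls that ended when 1 library was left out were those on Scnn1a (corticosterone 3 or 4 or high-fat diet 2 or 4), with an adjusted p of up to 0.166 without it.

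Several fatty acid desaturases were lower with corticosterone than on the high-fat diet. Scd1 and Scd2 were among the 5 lower genes with the largest difference of mean CPM. Scd1, the stearoyl-CoA desaturase that makes monounsaturated fatty acids (ENSMUSG00000037071, GRCm38 chromosome 19, 44394451 to 44407709, minus strand), had 8244, 8039.8, 13552 and 13435 CPM in the corticosterone libraries and 107441, 128392, 117707 and 73616 CPM in the high-fat diet libraries. The highest corticosterone library lay far below the lowest high-fat diet library, and by the fit Scd1 was 9.87-fold lower with corticosterone (log2 fold change -3.3 ± 0.36, adjusted p = 3.4e-06). Scd2, its neighbouring paralog, had 296, 218, 366 and 312 CPM with corticosterone and 1596, 2042, 2202 and 1367 CPM on the high-fat diet (log2 fold change -2.6 ± 0.22, adjusted p = 1.7e-07). In both genes the groups were wide apart. Scd3 and Scd4 were called lower as well, with log2 fold changes of -3.19 ± 0.33 and -3.04 ± 0.35. Scd3, however, had 0.835, 0.753, 0.861 and 1.18 counts per 1000 Scd1 counts with corticosterone, against 0.845, 0.876, 0.890 and 0.850 on the high-fat diet. Scd4 had 0.165, 0.110, 0.156 and 0.221 counts per 1000 Scd1 counts with corticosterone, against 0.132, 0.138, 0.151 and 0.148 on the high-fat diet. The groups overlapped in both shares. The sources used here do not say how reads with several hits were counted, so the values of Scd3 and Scd4 are uncertain. Fads2, a desaturase of polyunsaturated fatty acids, had 6.44, 7.2, 7.91 and 5.61 CPM with corticosterone, against 23, 22, 22.6 and 14.9 CPM on the high-fat diet (log2 fold change -1.6 ± 0.32, adjusted p = 0.001), while Fads1 did not pass (log2 fold change -0.39 ± 0.21, adjusted p = 0.222).

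Genes of de novo lipogenesis were more often lower than higher. Of 18 tested, 10 were lower (55.6%, against 8.49% of all genes) and 2 higher, with a median log2 fold change of -0.77, against -0.04 over all genes. The 10 and the median include Scd3 and Scd4, whose values are uncertain. Apart from the desaturases, the lower genes supply acetyl groups, citrate and reducing power or lengthen chains: Acss2 (acetyl-CoA from acetate, log2 fold change -2.11 ± 0.25, adjusted p = 8.1e-06), the citrate carrier gene Slc25a1 (log2 fold change -1.21 ± 0.25, adjusted p = 0.002), Me1 (log2 fold change -0.74 ± 0.25, adjusted p = 0.045), Elovl5 (log2 fold change -0.80 ± 0.10, adjusted p = 1.1e-05) and Tecr (log2 fold change -1.07 ± 0.16, adjusted p = 1.2e-04). Acss2 had 78.9, 55.2, 89.1 and 74.5 CPM in the corticosterone libraries and 287, 367, 393 and 242 CPM in the high-fat diet libraries, and each corticosterone library lay below each high-fat diet library. The 2 higher genes were Acaca and Thrsp. Acaca, the first committed enzyme of the pathway, had 1147, 884, 1206 and 1069 CPM with corticosterone and 638, 764, 649 and 462 CPM on the high-fat diet (log2 fold change 0.78 ± 0.22, adjusted p = 0.018). Thrsp, a lipogenic regulator, had 972, 778, 1046 and 803 CPM with corticosterone, against 331, 485, 186 and 167 CPM on the high-fat diet (log2 fold change 1.62 ± 0.37, adjusted p = 0.005). In neither did the groups overlap. Fasn, the fatty acid synthase gene, was at 10939, 6449.5, 10875 and 9021 CPM in the corticosterone libraries and 8691, 11028, 11261 and 6946 CPM in the high-fat diet libraries, and the groups overlapped (log2 fold change -0.02 ± 0.29, adjusted p = 0.967). The carbohydrate-sensing factor gene Mlxipl (ChREBP) was higher, with 235, 237, 214 and 226 CPM with corticosterone and 91.4, 88.2, 74.6 and 40.9 CPM on the high-fat diet (log2 fold change 1.63 ± 0.27, adjusted p = 2.8e-04). The gene of the lipogenic factor SREBP-1, Srebf1, did not pass (log2 fold change -0.44 ± 0.25, adjusted p = 0.258). In the fit without high-fat diet libraries 1 and 4, Acaca and Thrsp missed the threshold (adjusted p = 0.067 to 0.195), as did Me1 and Acaca in the fit without corticosterone libraries 3 and 4 (adjusted p = 0.089 to 0.131). Calls lost with the omission of 1 library were those on Me1 (corticosterone 1, 2, 3 or 4 or high-fat diet 2, 3 or 4), where the adjusted p reached 0.140 at most.

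Genes of cholesterol synthesis and its regulation were lower in part. Of 27 tested members, 11 were lower (40.7%, against 8.49% of all genes) and 2 higher, with a median of -0.55. Insig1, the sterol sensor that holds back SREBP processing, had 158, 116, 161 and 134 CPM with corticosterone, against 612, 776, 978 and 478 CPM on the high-fat diet, a gap without overlap (log2 fold change -2.32 ± 0.27, adjusted p = 7.0e-06). Among the lower enzymes of the pathway, with these log2 fold changes, were Fdps (-1.11 ± 0.20), Nsdhl (-0.97 ± 0.19), Lss (-0.94 ± 0.18), Tm7sf2 (-0.90 ± 0.21), Mvd (-0.66 ± 0.17), Sqle (-0.56 ± 0.15), Cyp51 (-0.56 ± 0.16), Pmvk (-0.55 ± 0.19) and Dhcr7 (-0.52 ± 0.15). Fdft1, squalene synthase, was 1 of the 2 higher members, with 52.5, 53.6, 53 and 49.4 CPM in the corticosterone libraries and 31.3, 35.1, 37.6 and 20.5 CPM in the high-fat diet libraries (log2 fold change 0.75 ± 0.20, adjusted p = 0.015). Its groups were separate. High-fat diet library 3 was the highest of the 8 for each of the 11 lower members. Without it, 6 members were lower instead of 11, while the count over all genes went from 1674 to 1305. Without corticosterone libraries 3 and 4 the count was 4, against 928 over all genes. Fdft1 did not pass in the absence of high-fat diet libraries 1 and 4 (adjusted p = 0.199), nor did Tm7sf2, Mvd, Sqle, Cyp51, Pmvk and Dhcr7 in the absence of corticosterone libraries 3 and 4 (adjusted p = 0.071 to 0.174). The omission of 1 library lost Mvd (corticosterone 1 or 4 or high-fat diet 3), Cyp51 (corticosterone 2 or 4 or high-fat diet 2 or 3), Pmvk (corticosterone 1, 2, 3 or 4 or high-fat diet 1, 2 or 3) and Dhcr7 (corticosterone 2 or high-fat diet 3), at an adjusted p of up to 0.132.

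Hmgcs1, the synthase at the head of the pathway, was the 1 of 19 members with a RefSeq promoter whose window held the sterol regulatory element TCACNCCAC on either strand, against 1.44% of 27025 genes. Its sequence (RefSeq, GRCm38.p6, chr13:119690101-119690400, plus strand) is shown because the element is the binding site of the SREBP factors, with the match in capitals at position -137.
Hmgcs1: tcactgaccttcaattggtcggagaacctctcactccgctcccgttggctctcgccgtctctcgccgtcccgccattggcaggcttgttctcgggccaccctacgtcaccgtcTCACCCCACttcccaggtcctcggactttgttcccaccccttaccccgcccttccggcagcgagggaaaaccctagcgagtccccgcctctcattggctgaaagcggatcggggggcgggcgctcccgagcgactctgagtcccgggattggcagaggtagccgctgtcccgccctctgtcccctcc
Hmgcs1 had 278, 192, 207 and 225 CPM with corticosterone and 275, 368, 466 and 215 CPM on the high-fat diet, with overlapping ranges, and did not pass (log2 fold change -0.55 ± 0.29, adjusted p = 0.209).

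Most genes of fat cell identity did not pass. Of 19 tested regulators and droplet proteins, 4 were higher (21.1%, against 7.27% of all genes) and 1, Cidea, was lower, with a median of 0.04. Ebf1, an early adipogenic factor, had 417, 403, 374 and 414 CPM with corticosterone, against 188, 218, 177 and 163 CPM on the high-fat diet (log2 fold change 1.11 ± 0.11, adjusted p = 1.0e-06). Mlxipl was given above, and Cebpa (log2 fold change 0.70 ± 0.23, adjusted p = 0.040) and the droplet fusion protein gene Cidec (log2 fold change 0.81 ± 0.23, adjusted p = 0.019) were the others. Pparg, the master regulator of adipogenesis, had 269, 247, 229.8 and 264 CPM in the corticosterone libraries and 191, 223, 225 and 121 CPM in the high-fat diet libraries and did not pass (log2 fold change 0.41 ± 0.24, adjusted p = 0.269). High-fat diet library 4 was the lowest of all 8 for Pparg, Cebpa and Cidec. Dropping high-fat diet libraries 1 and 4 ended the call on Cidea, Cebpa and Cidec (adjusted p = 0.122 to 0.321), and dropping corticosterone libraries 3 and 4 that on Cidea and Cebpa (adjusted p = 0.097 to 0.114). When 1 library was left out, the call ended for Cidea (corticosterone 1, 2 or 4 or high-fat diet 1, 2, 3 or 4) and Cebpa (corticosterone 1, 3 or 4 or high-fat diet 4), at an adjusted p of up to 0.127.

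Of 11 tested adipokines, 2 were higher and 2 lower (18.2% each, against 7.27% and 8.49% of all genes), with a median of -0.38, or -0.80 without high-fat diet libraries 1 and 4. Lep, the satiety hormone leptin, had 2846, 2947, 2610.4 and 3010.3 CPM with corticosterone and 1460.3, 1715, 1880.4 and 1007 CPM on the high-fat diet (log2 fold change 0.91 ± 0.27, adjusted p = 0.023). Nampt, an enzyme of NAD synthesis that is also secreted, had 177, 223, 167 and 181 CPM with corticosterone, against 90, 84.6, 79.6 and 61.4 CPM on the high-fat diet (log2 fold change 1.25 ± 0.17, adjusted p = 4.9e-05). Nrg4, a secreted growth factor of brown and beige fat, had 57.1, 41.2, 66.4 and 55.2 CPM in the corticosterone libraries and 114, 134, 146 and 80.7 CPM in the high-fat diet libraries (log2 fold change -1.11 ± 0.30, adjusted p = 0.014). In each of the 3 genes the groups did not overlap. Rarres2, the chemokine chemerin, was also lower (log2 fold change -0.87 ± 0.18, adjusted p = 0.002). Without high-fat diet library 4, 1 member was higher. Omitting high-fat diet libraries 1 and 4 lost the call on Lep (adjusted p = 0.250), and without corticosterone libraries 3 and 4 that on Lep was lost (adjusted p = 0.065). Leaving out 1 library was enough to lose Lep (high-fat diet 4), with an adjusted p of up to 0.059.

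Few genes of lipid uptake and release passed. None of the 16 tested genes of fatty acid uptake and esterification did (median 0.14), including the fatty acid transporter gene Cd36 (log2 fold change 0.24 ± 0.19, adjusted p = 0.426), and without high-fat diet library 3 one of them was higher. Of 17 lipolysis genes, 2 were higher and 2 lower (11.8% each, against 7.27% and 8.49% of all genes), with a median of -0.07. The higher ones were Abhd5, the coactivator of fat triglyceride lipase (log2 fold change 0.82 ± 0.20, adjusted p = 0.007), and Prkar2b, a regulatory subunit of protein kinase A (log2 fold change 0.83 ± 0.23, adjusted p = 0.017). The lower ones, Ptger3 and Hcar2, code for receptors that inhibit lipolysis, for prostaglandin E2 and for nicotinic acid and ketone bodies. Ptger3 had 45.9, 20.8, 71.1 and 49.9 CPM with corticosterone and 147, 191, 256 and 136 CPM on the high-fat diet (log2 fold change -1.96 ± 0.35, adjusted p = 6.1e-04). Hcar2 had 11, 9.76, 11.8 and 10.5 CPM with corticosterone, against 19.6, 31.8, 36.7 and 22.7 CPM on the high-fat diet (log2 fold change -1.36 ± 0.31, adjusted p = 0.005). Neither gene had overlapping groups. The lipase genes Pnpla2 (log2 fold change 0.61 ± 0.22, adjusted p = 0.064) and Lipe (log2 fold change 0.29 ± 0.22, adjusted p = 0.404) did not pass. Among the 15 lower genes with the largest fold change, 3 act on lipids. Pla2g2e, a secreted phospholipase, had 1.4, 1.94, 1.82 and 1.39 CPM in the corticosterone libraries and 24.4, 40.9, 54.9 and 27.7 CPM in the high-fat diet libraries (log2 fold change -4.49 ± 0.36, adjusted p = 1.1e-07). Pla2g5, another one, had 0.442, 0.795, 1.32 and 0.714 CPM with corticosterone and 12.3, 12, 11 and 9.83 CPM on the high-fat diet (log2 fold change -3.77 ± 0.47, adjusted p = 1.2e-05). Lipf, known as the lipase of the stomach, had 1.18, 0.795, 2.12 and 1.96 CPM with corticosterone, against 9.5, 12.6, 27.2 and 15.3 CPM on the high-fat diet (log2 fold change -3.4 ± 0.55, adjusted p = 2.2e-04). All corticosterone libraries lay below all high-fat diet libraries in the 3 genes, which the rule for naming them required. The call on Abhd5 and Prkar2b was lost without high-fat diet libraries 1 and 4 (adjusted p = 0.150 to 0.226).

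Thermogenic genes were lower in part. Of 13 tested, 5 were lower (38.5%, against 8.49% of all genes) and 1 higher, with a median of -0.45, or -0.71 without corticosterone libraries 3 and 4. Ucp1, the uncoupling protein of brown and beige fat, had 0.552, 1.5, 2.88 and 1.25 CPM in the corticosterone libraries and 19.2, 10.2, 22.6 and 9.42 CPM in the high-fat diet libraries (log2 fold change -3.3 ± 0.90, adjusted p = 0.015). Cox8b, a cytochrome oxidase subunit of brown fat, had 4.23, 2.61, 8.52 and 6.68 CPM with corticosterone and 38.9, 41.2, 59.1 and 26.1 CPM on the high-fat diet (log2 fold change -2.9 ± 0.45, adjusted p = 1.5e-04). Otop1, a proton channel gene, had 1.8, 0.53, 5.32 and 3.0 CPM with corticosterone, against 29.1, 21.8, 38 and 20.9 CPM on the high-fat diet (log2 fold change -3.34 ± 0.68, adjusted p = 0.002). The groups were separate in all 3. Alpl (log2 fold change -1.1 ± 0.28, adjusted p = 0.009) and the droplet protein gene Cidea (log2 fold change -1.62 ± 0.55, adjusted p = 0.049) were the other lower members. Ppargc1a, a coactivator of mitochondrial genes, was higher, with 18.4, 19.2, 20.2 and 20.1 CPM in the corticosterone libraries and 9.85, 10.1, 7.82 and 5.46 CPM in the high-fat diet libraries (log2 fold change 1.23 ± 0.30, adjusted p = 0.007). Without corticosterone library 1, 3 members were lower instead of 5, while the count over all genes went from 1674 to 1199. With high-fat diet libraries 1 and 4 left out, Cidea and Ppargc1a no longer passed (adjusted p = 0.070 to 0.122), nor did Ucp1 and Cidea without corticosterone libraries 3 and 4 (adjusted p = 0.066 to 0.097). Calls that ended when 1 library was left out were those on Ucp1 (corticosterone 1) and Cidea (corticosterone 1, 2 or 4 or high-fat diet 1, 2, 3 or 4), with an adjusted p of up to 0.127 without it.

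Few genes of mitochondrial pathways passed. Of 19 fatty acid oxidation genes, 3 were higher (15.8%, against 7.27% of all genes) and 2 lower (10.5%, against 8.49%), with a median of -0.01. Cpt1a, which admits long-chain fatty acids to mitochondria, had 70.2, 83.4, 77.9 and 82.7 CPM with corticosterone and 155, 153, 182 and 152 CPM on the high-fat diet, lower without overlap (log2 fold change -1.03 ± 0.16, adjusted p = 1.2e-04). The peroxisomal enzyme gene Ehhadh was lower as well (log2 fold change -0.79 ± 0.26, adjusted p = 0.039). Acadm, an acyl-CoA dehydrogenase (log2 fold change 0.72 ± 0.21, adjusted p = 0.026), and Acaa2, a thiolase (log2 fold change 0.54 ± 0.18, adjusted p = 0.042), were among the higher ones. Of 13 genes of the tricarboxylic acid cycle, 1 was higher, Sdhb (log2 fold change 0.53 ± 0.17, adjusted p = 0.038), and of 23 nuclear-encoded subunits of oxidative phosphorylation 1 was higher; none was lower in either list. The medians of these 2 lists were 0.17 and 0.20. Higher members made up 7.69% and 4.35% of them, against 7.27% of all genes. Each corticosterone library exceeded each high-fat diet library in 30.8% and 34.8% of their members, against 12.9% of all genes. Leaving out 1 library gave 0 to 2 higher members in the cycle and 1 or 2 in oxidative phosphorylation, and without high-fat diet library 4 fatty acid oxidation held 1 higher member. Each library except high-fat diet 1, left out alone, brought its lower members to 1. In the fit without high-fat diet libraries 1 and 4, Acadm, Acaa2 and Sdhb missed the threshold (adjusted p = 0.246 to 0.296), as did Ehhadh, Acadm, Acaa2 and Sdhb in the fit without corticosterone libraries 3 and 4 (adjusted p = 0.060 to 0.172). Calls lost with the omission of 1 library were those on Ehhadh (corticosterone 1, 2, 3 or 4 or high-fat diet 2, 3 or 4), Acadm (high-fat diet 4), Acaa2 (corticosterone 2 or 3 or high-fat diet 4) and Sdhb (corticosterone 3 or high-fat diet 4), where the adjusted p reached 0.113 at most.

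Genes that break down branched-chain amino acids, a fuel of fat cells, were higher in part. Of 20 tested members, 8 were higher (40%, against 7.27% of all genes) and none lower, with a median of 0.47, and in 10 of them (50%, against 12.9%) each corticosterone library exceeded each high-fat diet library. Bcat2, the mitochondrial transaminase of the first step, had 193, 169, 152 and 161 CPM with corticosterone, against 77.2, 82.5, 68.9 and 53.6 CPM on the high-fat diet (log2 fold change 1.25 ± 0.22, adjusted p = 5.8e-04). Dbt, a subunit of the rate-setting dehydrogenase complex, had 109, 98.2, 89.4 and 96.6 CPM in the corticosterone libraries and 45.5, 50.8, 43.1 and 30.1 CPM in the high-fat diet libraries (log2 fold change 1.22 ± 0.21, adjusted p = 4.4e-04). Ppm1k, the phosphatase that activates the complex, had 26, 27.1, 23.5 and 21.9 CPM with corticosterone and 14.2, 11.2, 9.81 and 13 CPM on the high-fat diet (log2 fold change 1.03 ± 0.14, adjusted p = 4.5e-05). In the 3 genes the groups did not overlap. Bckdk, the kinase that silences the complex, did not pass (log2 fold change -0.17 ± 0.14, adjusted p = 0.445). Further down, Ivd (1.1 ± 0.22), Aldh6a1 (0.85 ± 0.22), Hibch (0.84 ± 0.20), Pcca (0.56 ± 0.17) and Hibadh (0.50 ± 0.17) were higher by these log2 fold changes (adjusted p = 0.001, 0.009, 0.006, 0.025 and 0.043). Without high-fat diet libraries 1 and 4, 4 members were higher instead of 8, while the count over all genes went from 1434 to 624. Aldh6a1, Hibch, Pcca and Hibadh did not pass in the absence of high-fat diet libraries 1 and 4 (adjusted p = 0.107 to 0.345), nor did Pcca and Hibadh in the absence of corticosterone libraries 3 and 4 (adjusted p = 0.057 to 0.064). The omission of 1 library lost Pcca (corticosterone 3) and Hibadh (corticosterone 2 or 3 or high-fat diet 1 or 4), at an adjusted p of up to 0.077.

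Genes of insulin signalling were higher in part. Of 16 tested, 7 were higher (43.8%, against 7.27% of all genes) and 1 lower, with a median of 0.26. Irs3, a rodent insulin receptor substrate of fat, had 136, 132, 102 and 122 CPM with corticosterone, against 34.6, 46.2, 49.8 and 30.9 CPM on the high-fat diet (log2 fold change 1.61 ± 0.24, adjusted p = 9.6e-05). Irs2 had 153, 158, 112 and 143 CPM in the corticosterone libraries and 77.4, 99.7, 86.7 and 60.4 CPM in the high-fat diet libraries (log2 fold change 0.80 ± 0.20, adjusted p = 0.009). In both the groups were separate. Insr, the receptor itself (log2 fold change 0.51 ± 0.17, adjusted p = 0.040), Pik3r1, a regulatory subunit of PI3 kinase (log2 fold change 0.75 ± 0.25, adjusted p = 0.049), Pdpk1, which activates Akt (log2 fold change 0.39 ± 0.09, adjusted p = 0.003), the adaptor gene Grb10, known to dampen the signal (log2 fold change 0.70 ± 0.14, adjusted p = 0.001), and the transcription factor gene Foxo1, which insulin holds inactive (log2 fold change 0.81 ± 0.19, adjusted p = 0.005), were the rest. Pik3r3, another subunit, was lower (log2 fold change -0.51 ± 0.12, adjusted p = 0.005). Without high-fat diet library 4, 2 members were lower. Dropping high-fat diet libraries 1 and 4 ended the call on Irs2, Insr, Pik3r1 and Pdpk1 (adjusted p = 0.065 to 0.319), and dropping corticosterone libraries 3 and 4 that on Insr and Pik3r1 (adjusted p = 0.054 to 0.151). When 1 library was left out, the call ended for Insr (corticosterone 1 or 3 or high-fat diet 4) and Pik3r1 (corticosterone 1, 3 or 4 or high-fat diet 1, 3 or 4), at an adjusted p of up to 0.098.

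The insulin-responsive glucose transporter gene Slc2a4 (GLUT4) had 274, 232, 254 and 242 CPM with corticosterone and 111, 131, 89.4 and 61.4 CPM on the high-fat diet, with each corticosterone library above each high-fat diet library (log2 fold change 1.35 ± 0.28, adjusted p = 0.002). Hexokinase genes split: Hk2 was higher (log2 fold change 0.88 ± 0.23, adjusted p = 0.011) and Hk1 lower (log2 fold change -0.57 ± 0.12, adjusted p = 0.002). Of 16 genes of glucose uptake and glycolysis, 2 were higher and 2 lower (12.5% each, against 7.27% and 8.49% of all genes), with a median of 0.17. The other lower one was the phosphofructokinase gene Pfkp (log2 fold change -0.40 ± 0.08, adjusted p = 0.002). Of 15 FoxO target and protein breakdown genes (median 0.16), 2 were higher (13.3%, against 7.27% of all genes) and 1 lower (6.67%, against 8.49%). The stress sensor gene Gadd45a (log2 fold change 0.98 ± 0.17, adjusted p = 4.1e-04) and the autophagy gene Gabarapl1 (log2 fold change 0.62 ± 0.15, adjusted p = 0.006) were higher. The sestrin gene Sesn3 was lower (log2 fold change -0.47 ± 0.15, adjusted p = 0.043). Omitting high-fat diet libraries 1 and 4 lost the call on Hk2, Gabarapl1 and Sesn3 (adjusted p = 0.089 to 0.264), and without corticosterone libraries 3 and 4 that on Pfkp and Sesn3 was lost (adjusted p = 0.063 to 0.182). Leaving out 1 library was enough to lose Sesn3 (corticosterone 1, 2, 3 or 4 or high-fat diet 1, 2, 3 or 4), with an adjusted p of up to 0.227.

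**Figure D3:**
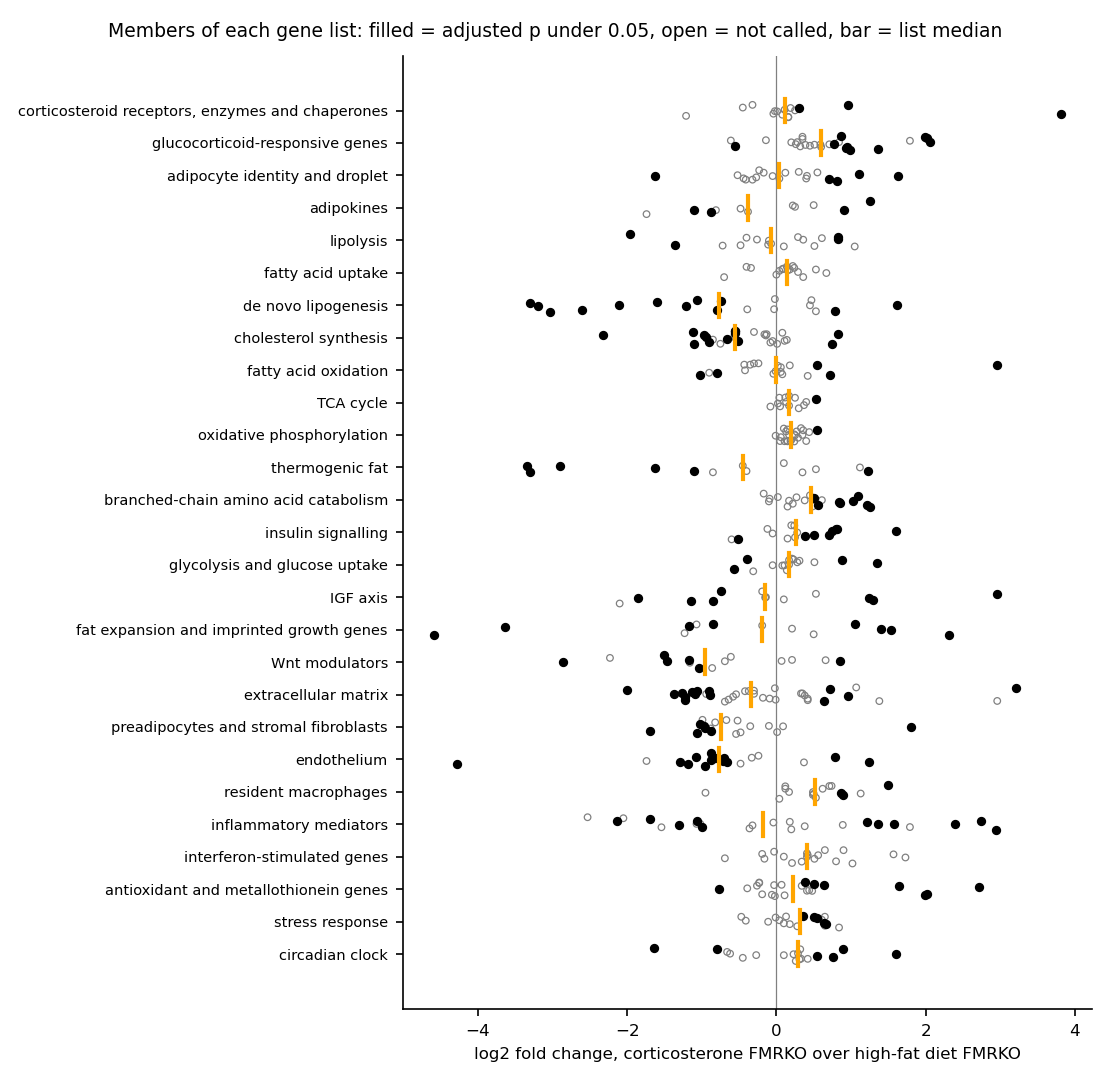
Log2 fold change of corticosterone over high-fat diet in FMRKO mice (x axis) for each tested member of 27 gene lists (y axis), 1 point per gene, filled where the adjusted p was under 0.05, with an orange bar at the list median. De novo lipogenesis (median -0.77), endothelium (-0.77) and Wnt modulators (-0.95, or -0.42 without high-fat diet libraries 1 and 4) lie to the left, and glucocorticoid-responsive genes (0.59), resident macrophages (0.52) and branched-chain amino acid catabolism (0.47) to the right.

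The growth hormone and insulin-like growth factor axis went both ways. Ghr, the growth hormone receptor, had 1991, 1870, 1714 and 1832 CPM with corticosterone, against 706, 918, 805 and 569.9 CPM on the high-fat diet (log2 fold change 1.3 ± 0.17, adjusted p = 2.8e-05). Igfbp3, a binding protein that holds the growth factors in blood and matrix, had 201, 224, 175 and 198 CPM in the corticosterone libraries and 31.9, 19.4, 19.6 and 31.2 CPM in the high-fat diet libraries (log2 fold change 2.96 ± 0.41, adjusted p = 4.8e-05). Both were higher without overlap, as was the binding protein gene Igfbp4 (log2 fold change 1.24 ± 0.15, adjusted p = 1.2e-05). Igf1, the growth factor induced by growth hormone, had 175, 93.9, 200.1 and 146 CPM with corticosterone and 299, 383, 409 and 276 CPM on the high-fat diet (log2 fold change -1.15 ± 0.23, adjusted p = 0.002). Igfals, its circulating partner, had 29.7, 9.5, 41.7 and 26.2 CPM with corticosterone, against 78.2, 91.1, 143 and 78.9 CPM on the high-fat diet (log2 fold change -1.86 ± 0.45, adjusted p = 0.007). Both were lower without overlap. Igf2 (log2 fold change -0.85 ± 0.27, adjusted p = 0.033) and Socs2, an inhibitor of growth hormone signalling (log2 fold change -0.74 ± 0.25, adjusted p = 0.048), were also lower, so that 3 of 13 tested members were higher (23.1%, against 7.27% of all genes) and 4 lower (30.8%, against 8.49%), with a median of -0.15. The count of lower members was 2 without corticosterone library 1, 2 or 4 or without high-fat diet library 1. The call on Igf2 and Socs2 was lost without high-fat diet libraries 1 and 4 (adjusted p = 0.058 to 0.617), as was that on Igf2 and Socs2 without corticosterone libraries 3 and 4 (adjusted p = 0.085 to 0.294). A single library left out ended the call on Igf2 (corticosterone 1, 2 or 4 or high-fat diet 1, 2 or 3) and Socs2 (corticosterone 1, 2, 3 or 4 or high-fat diet 1 or 4), with an adjusted p of up to 0.324.

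A list of fat expansion and imprinted growth genes split, with 4 of 13 higher and 4 lower, Igf2 among them (30.8% each, against 7.27% and 8.49% of all genes), and a median of -0.19. The list was chosen with earlier results of these data known, and Mest and Tph2 are also among the 15 lower genes with the largest fold change. Mest, an imprinted gene that rises as fat cells enlarge (ENSMUSG00000051855, GRCm38 chromosome 6, 30723547 to 30748455, plus strand), had 60.6, 37.1, 66.5 and 46.8 CPM in the corticosterone libraries and 498, 655, 1017 and 439 CPM in the high-fat diet libraries, all high-fat diet libraries lying far above (log2 fold change -3.63 ± 0.40, adjusted p = 4.2e-06). Sfrp5, a secreted Wnt inhibitor of expanding fat, had 87.4, 112, 104 and 109 CPM with corticosterone and 189.7, 281, 269 and 186 CPM on the high-fat diet (log2 fold change -1.17 ± 0.25, adjusted p = 0.003). Tph2, a serotonin-synthesizing enzyme known from neurons, had 0.81, 0.442, 1.26 and 0.25 CPM with corticosterone, against 7.67, 11.4, 28.2 and 21.1 CPM on the high-fat diet (log2 fold change -4.59 ± 0.58, adjusted p = 1.4e-05). In the other direction, the retrotransposon-derived imprinted gene Peg10 had 90.8, 82.4, 87.9 and 103 CPM in the corticosterone libraries and 13.6, 17.9, 21 and 20.9 CPM in the high-fat diet libraries (log2 fold change 2.31 ± 0.29, adjusted p = 1.5e-05). Cdkn1c, which codes for the growth inhibitor p57, had 35.3, 31.5, 26.3 and 30.6 CPM with corticosterone and 12.4, 12.5, 9.63 and 8.16 CPM on the high-fat diet (log2 fold change 1.54 ± 0.19, adjusted p = 1.0e-05). Plagl1, a transcription factor (log2 fold change 1.05 ± 0.17, adjusted p = 2.9e-04), and Nnat, neuronatin (log2 fold change 1.4 ± 0.27, adjusted p = 0.001), were higher as well. The groups did not overlap in any of these genes. Peg3 (log2 fold change -0.19 ± 0.22, adjusted p = 0.589) and H19 (log2 fold change -1.07 ± 0.74, adjusted p = 0.350) did not pass. With high-fat diet libraries 1 and 4 left out, Igf2 no longer passed (adjusted p = 0.058), nor did Igf2 without corticosterone libraries 3 and 4 (adjusted p = 0.085). Calls that ended when 1 library was left out were those on Igf2 (corticosterone 1, 2 or 4 or high-fat diet 1, 2 or 3), with an adjusted p of up to 0.108 without it.

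Several of the 15 lower genes with the largest fold change are best known from other tissues. Ncan, neurocan, a proteoglycan of brain matrix, had 25.2, 12.9, 51.3 and 30.6 CPM with corticosterone, against 423, 529.6, 849.7 and 421 CPM on the high-fat diet (log2 fold change -4.21 ± 0.50, adjusted p = 8.3e-06). Hydin, a gene of motile cilia, had 0.81, 0.574, 1.62 and 0.571 CPM in the corticosterone libraries and 12.9, 16.6, 32.3 and 20.7 CPM in the high-fat diet libraries (log2 fold change -4.5 ± 0.46, adjusted p = 1.8e-06). Gsg1l, a glutamate receptor partner, had 0.0736, 0, 0.176 and 0.143 CPM with corticosterone and 2.71, 2.67, 10.2 and 6.91 CPM on the high-fat diet (log2 fold change -5.7 ± 0.76, adjusted p = 3.3e-05). In each of them high-fat diet library 3 was the highest. No corticosterone library reached a high-fat diet one, which the rule for naming these genes required. Tmem132b (-5.16 ± 0.81), Kcne1l (-4.42 ± 0.44) and Kcnj14 (-3.7 ± 0.43), the last 2 of potassium channels, were also lower by these log2 fold changes (adjusted p = 1.6e-04, 1.4e-06 and 7.1e-06). So were the carbonic anhydrase gene Car12 (-4.12 ± 0.60), Efcab8 (-3.47 ± 0.43) and the kinase gene Cdkl4 (-3.4 ± 0.31), with adjusted p = 7.6e-05, 1.2e-05 and 6.4e-07. Among abundant genes the alpha-tubulin gene Tuba1a was lower, with 538, 383, 636 and 502 CPM with corticosterone, against 1608, 1821, 2368 and 1297 CPM on the high-fat diet (log2 fold change -1.78 ± 0.28, adjusted p = 1.5e-04). The intermediate filament gene Vim was higher, with 3494, 3309.9, 3159 and 3805 CPM in the corticosterone libraries and 1891, 1877, 2246 and 1774 CPM in the high-fat diet libraries (log2 fold change 0.82 ± 0.16, adjusted p = 0.001).

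Genes of the extracellular matrix were lower in part. Of 36 tested, 10 were lower (27.8%, against 8.49% of all genes) and 4 higher, with a median of -0.34, and in 17 (47.2%, against 12.1%) each corticosterone library lay below each high-fat diet library. Col6a3, a collagen VI chain that is abundant in obese fat, had 566, 323, 559 and 592 CPM with corticosterone and 1208, 1396, 1501 and 1155 CPM on the high-fat diet (log2 fold change -1.37 ± 0.28, adjusted p = 0.002). Col3a1 had 1762, 918, 2077 and 2065 CPM with corticosterone, against 3419, 4356, 4494 and 3618 CPM on the high-fat diet (log2 fold change -1.22 ± 0.35, adjusted p = 0.019). Corticosterone library 2 was the lowest of all in both. Fibronectin (Fn1, -1.27 ± 0.36), Col14a1 (-2.0 ± 0.40), Col1a2 (-1.13 ± 0.33), Col15a1 (-0.89 ± 0.26), Loxl2 (-1.09 ± 0.30) and the matrix proteases Mmp2 (-1.22 ± 0.27), Mmp3 (-1.07 ± 0.23) and Mmp14 (-0.90 ± 0.24) were the other lower members, with these log2 fold changes. Timp4, an inhibitor of such proteases that is made by fat cells, had 916, 871, 698 and 858 CPM in the corticosterone libraries and 128, 116, 78.1 and 40.2 CPM in the high-fat diet libraries (log2 fold change 3.21 ± 0.33, adjusted p = 1.8e-06). All corticosterone libraries lay far above all high-fat diet libraries. The cross-linking enzyme gene Lox (0.96 ± 0.23), Col18a1 (0.72 ± 0.23) and P4ha2 (0.64 ± 0.16) were higher too, and the basement membrane collagen gene Col4a1 did not pass (log2 fold change 0.38 ± 0.18, adjusted p = 0.150). Without corticosterone library 2, 4 members were lower instead of 10, while the count over all genes went from 1674 to 1209. In the fit without high-fat diet libraries 1 and 4, Fn1, Col1a2, Loxl2, Lox, Col18a1 and P4ha2 missed the threshold (adjusted p = 0.051 to 0.287), as did Col18a1 and P4ha2 in the fit without corticosterone libraries 3 and 4 (adjusted p = 0.051 to 0.066). Calls lost with the omission of 1 library were those on Col3a1 (corticosterone 2), Fn1 (corticosterone 1 or 2 or high-fat diet 4), Col1a2 (corticosterone 1 or 2 or high-fat diet 2 or 4), Col15a1 (corticosterone 2 or high-fat diet 3), Loxl2 (corticosterone 2), Mmp14 (corticosterone 2) and Col18a1 (corticosterone 4 or high-fat diet 1 or 4), where the adjusted p reached 0.085 at most.

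Stromal and Wnt genes were lower in part as well. Of 18 markers of preadipocytes and stromal fibroblasts, 6 were lower (33.3%, against 8.49% of all genes) and 1 higher, with a median of -0.75, or -0.34 without high-fat diet libraries 1 and 4. Pdgfrb, a receptor of perivascular and stromal cells, had 75, 54.8, 74.3 and 77.3 CPM with corticosterone and 131, 142, 154 and 119 CPM on the high-fat diet (log2 fold change -0.96 ± 0.15, adjusted p = 1.6e-04). Lum, a matrix proteoglycan, had 37.2, 23.7, 52.1 and 37.4 CPM with corticosterone, against 89.9, 122, 140.3 and 136 CPM on the high-fat diet (log2 fold change -1.69 ± 0.33, adjusted p = 0.001). Cd34 (log2 fold change -1.07 ± 0.26, adjusted p = 0.007), Clec11a (log2 fold change -0.97 ± 0.22, adjusted p = 0.004), Fap (log2 fold change -0.87 ± 0.24, adjusted p = 0.017) and the adhesion molecule gene Icam1 (log2 fold change -1.02 ± 0.34, adjusted p = 0.046) made up the rest. The precursor marker gene Pdgfra was at 92.4, 68.3, 101 and 88.7 CPM in the corticosterone libraries and 105, 128, 86.4 and 128 CPM in the high-fat diet libraries and did not pass (log2 fold change -0.35 ± 0.16, adjusted p = 0.150). Fmo2, a flavin monooxygenase gene, was the higher member, with 101, 198, 105 and 133 CPM with corticosterone and 36.5, 45.3, 40.2 and 31.5 CPM on the high-fat diet (log2 fold change 1.8 ± 0.30, adjusted p = 3.0e-04). Its groups did not overlap, while those of Pdgfra did. Fap and Icam1 did not pass in the absence of high-fat diet libraries 1 and 4 (adjusted p = 0.057 to 0.540), nor did Fap and Icam1 in the absence of corticosterone libraries 3 and 4 (adjusted p = 0.074 to 0.329). The omission of 1 library lost Fap (corticosterone 2 or high-fat diet 4) and Icam1 (corticosterone 1, 3 or 4 or high-fat diet 1 or 4), at an adjusted p of up to 0.266.

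Of 14 Wnt modulators, 5 were lower (35.7%, against 8.49% of all genes) and 1 higher, with a median of -0.95, or -0.42 without high-fat diet libraries 1 and 4. Sfrp2, a secreted Wnt antagonist, had 14.8, 9.72, 23.7 and 12.1 CPM with corticosterone, against 39.5, 38.2, 47.1 and 42.6 CPM on the high-fat diet, with separate groups (log2 fold change -1.47 ± 0.34, adjusted p = 0.005). Sfrp4, of the same family, had 1.1, 0.53, 2.5 and 0.928 CPM in the corticosterone libraries and 6.65, 7.35, 10.5 and 12.9 CPM in the high-fat diet libraries (log2 fold change -2.86 ± 0.61, adjusted p = 0.003). The antagonist genes Sfrp1 (log2 fold change -1.04 ± 0.26, adjusted p = 0.009) and Dkk2 (log2 fold change -1.51 ± 0.46, adjusted p = 0.027) were lower as well, besides Sfrp5, and the ligand gene Wnt11 was higher (log2 fold change 0.85 ± 0.20, adjusted p = 0.006). Dropping high-fat diet libraries 1 and 4 ended the call on Dkk2 (adjusted p = 0.120), and dropping corticosterone libraries 3 and 4 that on Sfrp1 and Dkk2 (adjusted p = 0.101 to 0.159). When 1 library was left out, the call ended for Dkk2 (corticosterone 1, 2 or 4 or high-fat diet 1), at an adjusted p of up to 0.092.

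Most endothelial genes were lower with corticosterone. Of 18 tested, 11 were lower (61.1%, against 8.49% of all genes) and 2 higher, with a median of -0.77, and in 11 (61.1%, against 12.1%) each corticosterone library lay below each high-fat diet library. Pecam1, the common marker of endothelial cells, had 114, 94.3, 111 and 93.7 CPM with corticosterone and 189, 181, 223 and 169 CPM on the high-fat diet (log2 fold change -0.88 ± 0.10, adjusted p = 3.7e-06). Tie1 had 35.9, 25.4, 37.9 and 31.7 CPM with corticosterone, against 83.1, 82.9, 100 and 53.7 CPM on the high-fat diet (log2 fold change -1.29 ± 0.16, adjusted p = 1.7e-05). Vwf, the clotting factor carrier, had 51.7, 40.1, 75.5 and 49.5 CPM in the corticosterone libraries and 123, 128, 155 and 91.3 CPM in the high-fat diet libraries (log2 fold change -1.19 ± 0.20, adjusted p = 2.5e-04). The groups were separate in all 3. Cdh5 (-0.87 ± 0.17), Cldn5 (-1.08 ± 0.24), Esam (-0.95 ± 0.16), Plvap (-0.82 ± 0.13), Emcn (-0.71 ± 0.16), Robo4 (-0.70 ± 0.16) and Tek (-0.66 ± 0.19) were lower too, by these log2 fold changes (adjusted p = 0.001, 0.003, 3.2e-04, 1.2e-04, 0.004, 0.005 and 0.021). Aplnr, the apelin receptor of growing vessels, differed most, with 2.76, 1.15, 2.79 and 2.07 CPM with corticosterone and 39.6, 37.5, 68.2 and 26.7 CPM on the high-fat diet (log2 fold change -4.28 ± 0.43, adjusted p = 1.6e-06). The 2 higher members code for growth factors of vessels. Vegfa had 327, 364, 260.4 and 312 CPM with corticosterone, against 179, 223, 201 and 128 CPM on the high-fat diet (log2 fold change 0.79 ± 0.20, adjusted p = 0.011). Angpt1 had 24.2, 28.7, 24.3 and 23.4 CPM in the corticosterone libraries and 12.5, 12.9, 9.03 and 8.13 CPM in the high-fat diet libraries (log2 fold change 1.24 ± 0.28, adjusted p = 0.004). The main VEGF receptor gene Kdr did not pass (log2 fold change -0.33 ± 0.18, adjusted p = 0.220), nor did Flt1 (log2 fold change -0.48 ± 0.17, adjusted p = 0.060). Within the high-fat diet group, library 4 was the lowest for 17 of the 18 genes. Without libraries 1 and 4 of that group 12 members were lower and 1 higher, against 1127 and 624 over all genes. Omitting high-fat diet libraries 1 and 4 lost the call on Vegfa (adjusted p = 0.169), and without corticosterone libraries 3 and 4 that on Robo4 was lost (adjusted p = 0.075). Leaving out 1 library was enough to lose Tek (corticosterone 2 or high-fat diet 2 or 3), with an adjusted p of up to 0.081.

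Macrophage genes passed in part. Of 16 markers of resident macrophages, 3 were higher (18.8%, against 7.27% of all genes) and none lower, with a median of 0.52. In 7 of them (43.8%, against 12.9% of all genes) each corticosterone library exceeded each high-fat diet library. Lyve1, a marker of vessel-associated macrophages that lymphatic endothelium also expresses, had 96.2, 151, 94.4 and 103 CPM with corticosterone and 41.1, 34.6, 32.1 and 48.9 CPM on the high-fat diet (log2 fold change 1.5 ± 0.25, adjusted p = 3.0e-04). The haemoglobin scavenger receptor gene Cd163 had 227, 269.9, 205 and 248 CPM with corticosterone, against 127, 117, 145 and 125 CPM on the high-fat diet (log2 fold change 0.89 ± 0.22, adjusted p = 0.009), and the transglutaminase gene F13a1 was higher (log2 fold change 0.86 ± 0.24, adjusted p = 0.018). Groups did not overlap in these 3. Csf1r (log2 fold change 0.04 ± 0.20, adjusted p = 0.917), Mrc1 (log2 fold change 0.12 ± 0.22, adjusted p = 0.755) and Adgre1 (log2 fold change 0.71 ± 0.32, adjusted p = 0.135) did not pass. Of 15 markers of lipid-associated macrophages none was higher and 2 were lower (13.3%, against 8.49% of all genes), with a median of 0.23. The lower ones were Ctsk (log2 fold change -1.28 ± 0.26, adjusted p = 0.002) and Acp5 (log2 fold change -0.63 ± 0.21, adjusted p = 0.043). In 8 of the 15 (53.3%, against 12.9% of all genes) the corticosterone libraries nevertheless exceeded all high-fat diet libraries. Trem2, a lipid receptor and 1 of those 8, had 17.8, 33.1, 17 and 22.5 CPM in the corticosterone libraries and 5.13, 7.18, 8.73 and 11.7 CPM in the high-fat diet libraries (log2 fold change 1.46 ± 0.74, adjusted p = 0.191). Gpnmb, a glycoprotein of lysosome-rich macrophages, had 118, 171, 161 and 161 CPM with corticosterone and 42.6, 72.7, 53.3 and 83.6 CPM on the high-fat diet (log2 fold change 1.28 ± 0.60, adjusted p = 0.159). In the fit on the 8 libraries alone, Trem2, Gpnmb and Adgre1 passed (adjusted p = 0.008, 0.003 and 0.008). The call on Cd163 and F13a1 was lost without high-fat diet libraries 1 and 4 (adjusted p = 0.085 to 0.140). A single library left out ended the call on Acp5 (corticosterone 1, 2 or 4 or high-fat diet 2 or 3), with an adjusted p of up to 0.143.

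Inflammatory mediators went both ways, with 6 of 24 higher (25%, against 7.27% of all genes) and 5 lower (20.8%, against 8.49%) and a median of -0.18. Hp, the acute-phase protein haptoglobin, had 6759, 6985, 4998 and 5312 CPM with corticosterone, against 1692, 2478, 3083 and 2140 CPM on the high-fat diet (log2 fold change 1.36 ± 0.26, adjusted p = 0.001). Il1rn, the interleukin-1 receptor antagonist, had 11.9, 31.3, 14.3 and 22.7 CPM in the corticosterone libraries and 1.62, 2.45, 3.28 and 3.01 CPM in the high-fat diet libraries (log2 fold change 2.95 ± 0.83, adjusted p = 0.017). Both were higher without overlap, as were the acute-phase gene Serpina3n (log2 fold change 1.21 ± 0.21, adjusted p = 4.6e-04) and the chemokine genes Ccl2 (log2 fold change 1.58 ± 0.47, adjusted p = 0.024), Ccl3 (log2 fold change 2.4 ± 0.72, adjusted p = 0.025) and Cxcl13 (log2 fold change 2.74 ± 0.88, adjusted p = 0.037). Corticosterone library 2 was the highest for Il1rn, Ccl2 and Ccl3. The stromal chemokine gene Cxcl12 had 82.7, 65, 90.5 and 84.9 CPM with corticosterone and 189.5, 199, 185 and 222 CPM on the high-fat diet, lower in every corticosterone library (log2 fold change -1.3 ± 0.14, adjusted p = 2.4e-06). Cxcl14 had 22.3, 20.6, 46.5 and 19.9 CPM with corticosterone, against 105, 81.8, 93.4 and 73.2 CPM on the high-fat diet (log2 fold change -1.69 ± 0.36, adjusted p = 0.002). The eosinophil chemokine gene Ccl11 (log2 fold change -1.07 ± 0.20, adjusted p = 9.0e-04), Ccl8 (log2 fold change -2.13 ± 0.68, adjusted p = 0.038) and Nos2, inducible nitric oxide synthase (log2 fold change -1.0 ± 0.24, adjusted p = 0.007), were lower too. Tnf did not pass (log2 fold change -0.36 ± 0.76, adjusted p = 0.794). Without corticosterone library 2, or without high-fat diet library 1, 3 members were higher instead of 6. With high-fat diet libraries 1 and 4 left out, Il1rn, Ccl2, Ccl3 and Ccl8 no longer passed (adjusted p = 0.149 to 0.243), nor did Il1rn, Cxcl13, Ccl8 and Nos2 without corticosterone libraries 3 and 4 (adjusted p = 0.051 to 0.294). Calls that ended when 1 library was left out were those on Il1rn (high-fat diet 1), Ccl2 (corticosterone 2 or 4), Ccl3 (corticosterone 2 or 4 or high-fat diet 1, 3 or 4), Cxcl13 (corticosterone 1 or 2 or high-fat diet 1, 2 or 3) and Ccl8 (corticosterone 1, 3 or 4 or high-fat diet 4), with an adjusted p of up to 0.145 without it.

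Interferon-stimulated genes, which cells switch on against viruses, were highest in 1 corticosterone library. None of 18 tested members passed in either direction, with a median of 0.42. In 17 of the 18, all but Ifi27l2a, corticosterone library 2 was the highest of all 8 libraries. In 17, all but Usp18, corticosterone libraries 1, 3 and 4 lay below the 4 high-fat diet libraries, a pattern counted after the values were seen. The ratio of library 2 to the highest of the other 3 corticosterone libraries had a median of 5.37 over the list and ran from 0.883 to 16.9. Igtp, an interferon-inducible GTPase gene, had 7.11, 125, 7.41 and 7.14 CPM in the corticosterone libraries and 12, 8.6, 8.21 and 15.2 CPM in the high-fat diet libraries (log2 fold change 1.73 ± 0.66, adjusted p = 0.082). Isg15, a ubiquitin-like protein gene, had 3.42, 46.3, 2.67 and 3.0 CPM with corticosterone and 4.54, 3.57, 5.96 and 4.55 CPM on the high-fat diet (log2 fold change 1.57 ± 0.68, adjusted p = 0.123). Gbp2 had 23.6, 180, 26 and 24.6 CPM with corticosterone, against 42.3, 42.1, 39.4 and 37.5 CPM on the high-fat diet (log2 fold change 0.65 ± 0.44, adjusted p = 0.336). Library 2 stood far above the other 7 in these 3 genes. Ifi27l2a had 587, 681, 771 and 606 CPM in the corticosterone libraries and 916, 1192, 1354 and 816 CPM in the high-fat diet libraries, with no library apart (log2 fold change -0.69 ± 0.28, adjusted p = 0.094). With library 2 left out, 5 members were lower, against 1209 of the 20181 genes tested in that fit, and none higher. Gbp2 was among the lower ones (log2 fold change -0.67, adjusted p = 4.5e-04). Without corticosterone libraries 3 and 4, where library 2 has more weight, 5 were higher, against 1083 of 20759 genes, and none lower. Without corticosterone library 1, 3 or 4 alone, 1 was higher, against 1297, 1251 and 1333 genes in all. In control mice 5 of the 18 were lower, against 14.2% of all genes, and none higher, with a median of -0.89. What set library 2 apart was not tested.

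**Figure D4:**
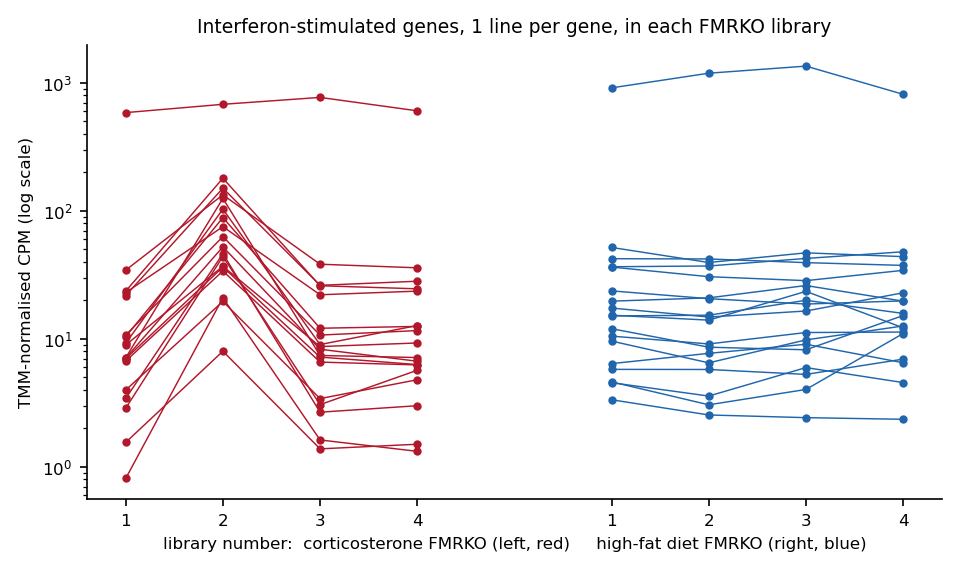
TMM-normalised CPM (y axis, log scale) of 18 interferon-stimulated genes, 1 line per gene, in the 4 corticosterone FMRKO libraries (red, left) and the 4 high-fat diet FMRKO libraries (blue, right), by library number (x axis). In 17 genes corticosterone library 2 is the highest of the 8, and in 17 corticosterone libraries 1, 3 and 4 are the lowest.

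Antioxidant and metallothionein genes were higher in part, with 7 of 22 higher (31.8%, against 7.27% of all genes), 1 lower and a median of 0.22. Gpx3, the secreted glutathione peroxidase of fat, had 1916, 1842, 1789.5 and 1795 CPM with corticosterone and 274, 336, 223 and 284 CPM on the high-fat diet, with groups wide apart (log2 fold change 2.72 ± 0.20, adjusted p = 3.7e-08). Gsta3, a glutathione transferase, had 155, 101, 95.6 and 98.4 CPM with corticosterone, against 42.1, 48.2, 34.9 and 19.4 CPM on the high-fat diet (log2 fold change 1.64 ± 0.37, adjusted p = 0.004), and Prdx3 (log2 fold change 0.64 ± 0.15, adjusted p = 0.005), Gstm1 (log2 fold change 0.51 ± 0.16, adjusted p = 0.036) and Gpx1 (log2 fold change 0.38 ± 0.12, adjusted p = 0.032) were higher by less, besides Mt1 and Mt2. The extracellular superoxide dismutase gene Sod3 had 463, 394, 511 and 485 CPM in the corticosterone libraries and 686, 824, 997 and 653 CPM in the high-fat diet libraries (log2 fold change -0.77 ± 0.17, adjusted p = 0.003). Without high-fat diet library 4, 2 members were lower. Catalase (Cat, log2 fold change -0.26 ± 0.20, adjusted p = 0.403) did not pass. The cytochrome P450 gene Cyp2e1, known to oxidise ethanol and ketones, had 1542, 973, 1209 and 1419 CPM with corticosterone and 246, 412, 171 and 127 CPM on the high-fat diet (log2 fold change 2.43 ± 0.36, adjusted p = 9.6e-05). All corticosterone libraries exceeded all high-fat diet libraries, a condition for genes named by their difference of mean CPM. In the fit without high-fat diet libraries 1 and 4, Gsta3, Prdx3, Gstm1 and Gpx1 missed the threshold (adjusted p = 0.059 to 0.304), as did Gstm1 in the fit without corticosterone libraries 3 and 4 (adjusted p = 0.060). Calls lost with the omission of 1 library were those on Gstm1 (corticosterone 3 or high-fat diet 3 or 4) and Gpx1 (corticosterone 2), where the adjusted p reached 0.070 at most.

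Of 18 stress response genes, 5 were higher (27.8%, against 7.27% of all genes) and none lower, with a median of 0.32. Atf4, a regulator of the response to amino acid shortage, had 128, 143, 106 and 135 CPM with corticosterone, against 93.1, 93.9, 92.9 and 82.9 CPM on the high-fat diet (log2 fold change 0.50 ± 0.09, adjusted p = 7.4e-04). Xbp1, which acts in the unfolded protein response, had 166, 171, 149 and 159.8 CPM in the corticosterone libraries and 98.7, 114, 110.2 and 91.4 CPM in the high-fat diet libraries (log2 fold change 0.64 ± 0.15, adjusted p = 0.006). Both had separate groups, and Ddit3 (log2 fold change 0.54 ± 0.13, adjusted p = 0.006), the disulfide isomerase gene Pdia4 (log2 fold change 0.36 ± 0.10, adjusted p = 0.018) and Phgdh, of serine synthesis (log2 fold change 0.67 ± 0.22, adjusted p = 0.037), were the others. Of 19 immediate-early genes (median 0.11), 2 were higher (10.5%, against 7.27% of all genes). They were the nuclear receptor gene Nr4a2 (log2 fold change 0.98 ± 0.20, adjusted p = 0.001) and Zfp36, which destabilises inflammatory mRNAs (log2 fold change 0.62 ± 0.17, adjusted p = 0.012). Fos did not pass (log2 fold change 0.26 ± 0.62, adjusted p = 0.819). None of 18 genes of the mitotic cell cycle passed, with a median of -0.23. Xbp1, Pdia4, Phgdh and Zfp36 did not pass in the absence of high-fat diet libraries 1 and 4 (adjusted p = 0.072 to 0.273). The omission of 1 library lost Phgdh (corticosterone 1 or 3 or high-fat diet 4), at an adjusted p of up to 0.083.

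Clock genes went both ways, and the sources used here do not say at what time of day tissue was taken. Of 19 tested, 4 were higher (21.1%, against 7.27% of all genes) and 2 lower (10.5%, against 8.49%), with a median of 0.29, or 0.17 without high-fat diet libraries 1 and 4. Dbp, a direct output of the clock, had 5.3, 7.64, 12.4 and 10.8 CPM with corticosterone and 32.5, 30.4, 31.3 and 19.3 CPM on the high-fat diet (log2 fold change -1.64 ± 0.27, adjusted p = 2.4e-04). Nr1d2, a repressor, had 26.7, 34.3, 40.4 and 34.1 CPM with corticosterone, against 65.4, 60.5, 59.7 and 49.1 CPM on the high-fat diet (log2 fold change -0.79 ± 0.15, adjusted p = 7.3e-04). Both were lower without overlap. Npas2, an activator, had 23.4, 10.4, 7.64 and 16.6 CPM in the corticosterone libraries and 5.66, 6.88, 3.63 and 2.86 CPM in the high-fat diet libraries (log2 fold change 1.61 ± 0.40, adjusted p = 0.009). Nfil3, which opposes Dbp at its sites, had 13.8, 11.3, 7.67 and 9.96 CPM with corticosterone and 5.24, 6.49, 7.43 and 3.99 CPM on the high-fat diet (log2 fold change 0.89 ± 0.22, adjusted p = 0.008). In both the groups were separate. The nuclear receptor gene Rora was higher too (log2 fold change 0.54 ± 0.16, adjusted p = 0.027). Arntl, the partner of Clock and Npas2, had 31.7, 23.3, 16.8 and 22.9 CPM with corticosterone, against 13.5, 13.3, 14.8 and 14.1 CPM on the high-fat diet and missed the threshold (log2 fold change 0.76 ± 0.27, adjusted p = 0.057). Per2 (log2 fold change 0.33 ± 0.21, adjusted p = 0.315) and Nr1d1 (log2 fold change -0.27 ± 0.22, adjusted p = 0.430) did not pass. Dropping high-fat diet libraries 1 and 4 ended the call on Npas2, Nfil3 and Rora (adjusted p = 0.095 to 0.278). When 1 library was left out, the call ended for Rora (high-fat diet 4), at an adjusted p of up to 0.056.

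The E-box CACGTG, the site of the Clock and Arntl proteins, is its own reverse complement and lay in the promoter window of 5 of 16 clock genes with a RefSeq promoter (31.2%), against 8.09% of 27025 genes. The members with it were Ciart, Cry1, Per1, Bhlhe41 and Tef, of which none passed the test. The windows of Ciart (chr3:95882179-95882478, minus strand) and Cry1 (chr10:85185005-85185304, minus strand), the members with the largest fold changes among them, are shown with matches in capitals (RefSeq, GRCm38.p6). Ciart holds 3 and Cry1 holds 1, at position -60.
Ciart: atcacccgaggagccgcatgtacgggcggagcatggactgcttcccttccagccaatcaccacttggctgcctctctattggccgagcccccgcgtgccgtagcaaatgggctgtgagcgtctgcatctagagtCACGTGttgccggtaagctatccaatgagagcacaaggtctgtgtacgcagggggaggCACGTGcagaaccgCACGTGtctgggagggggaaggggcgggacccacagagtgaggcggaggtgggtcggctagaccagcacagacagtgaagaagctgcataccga
Cry1: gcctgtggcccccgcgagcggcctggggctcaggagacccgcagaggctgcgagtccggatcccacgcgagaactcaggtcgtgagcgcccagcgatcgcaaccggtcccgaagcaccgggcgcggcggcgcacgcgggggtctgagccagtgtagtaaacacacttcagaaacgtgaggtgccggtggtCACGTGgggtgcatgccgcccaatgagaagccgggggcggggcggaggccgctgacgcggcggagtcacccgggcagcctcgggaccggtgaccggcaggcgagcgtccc
Ciart, a repressor of the Clock and Arntl complex, had 1.84, 1.72, 0.911 and 0.786 CPM in the corticosterone libraries and 2.36, 1.89, 2.07 and 1.98 CPM in the high-fat diet libraries, lower in each corticosterone library (log2 fold change -0.66 ± 0.36, adjusted p = 0.229). Cry1, a core repressor, had 13, 12.2, 9.99 and 10.5 CPM with corticosterone and 8.34, 6.36, 8.94 and 10.5 CPM on the high-fat diet, with overlapping groups (log2 fold change 0.42 ± 0.19, adjusted p = 0.138).

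Markers of other tissues differed widely between libraries of a group. Of 19 lymph node markers none passed, with a median of -2.69, or 0.82 without high-fat diet libraries 1 and 4. The T cell gene Cd3e had 0.405, 5.92, 2.91 and 0.5 CPM with corticosterone, against 13.8, 2.41, 2.46 and 51 CPM on the high-fat diet (log2 fold change -2.85 ± 1.19, adjusted p = 0.113). The B cell gene Cd79a had 0.7, 6.71, 13 and 0.536 CPM in the corticosterone libraries and 46, 1.59, 1.64 and 75.5 CPM in the high-fat diet libraries (log2 fold change -2.57 ± 1.42, adjusted p = 0.234). High-fat diet libraries 1 and 4 were the highest in both, and the other libraries of the groups overlapped. Of 14 epithelial markers, 2 were higher (14.3%, against 7.27% of all genes). The list median was 2.37, or -0.80 without corticosterone libraries 3 and 4. The 2 were the whey acidic protein family gene Wfdc18 (log2 fold change 4.35 ± 1.35, adjusted p = 0.031) and Prlr, the prolactin receptor. Prlr had 22.6, 19.8, 40.1 and 26.2 CPM with corticosterone and 4.01, 7.05, 5.01 and 4.18 CPM on the high-fat diet (log2 fold change 2.43 ± 0.40, adjusted p = 2.6e-04). Without corticosterone libraries 3 and 4 the log2 fold change of Wfdc18 was -0.93. Prlr was also higher in corticosterone libraries 1 and 2 than in each high-fat diet library. The keratin gene Krt14, 1 of the 14 markers, was at 0 there and on the high-fat diet, while other markers were not. Without high-fat diet libraries 1 and 4 and corticosterone libraries 3 and 4, Prlr did not pass (log2 fold change 1.82, adjusted p = 0.075). The source of the Prlr transcripts was not tested. Of 8 red cell genes 4 were higher (50%, against 7.27% of all genes), with a median of 0.92. Among them were Hba-a1 (log2 fold change 0.92 ± 0.31, adjusted p = 0.049), Hbb-bs (log2 fold change 1.07 ± 0.31, adjusted p = 0.021) and Hbb-bt (log2 fold change 1.11 ± 0.32, adjusted p = 0.019). The globin genes have near-identical copies, so single ones are uncertain. None of 16 muscle markers (median -0.24) and none of 4 mesothelial markers (median -0.35) passed, though 1 mesothelial marker was lower without corticosterone library 3. Of 11 adipocyte markers 2 were higher, Lep and Cidec (18.2%, against 7.27% of all genes), with a median of 0.29. Without high-fat diet library 4 the counts were 1 higher and 1 lower. Of 10 Schwann cell markers (median -0.37) 1 was lower (10%, against 8.49% of all genes). It was S100b, which fat cells also express (log2 fold change -2.02 ± 0.40, adjusted p = 0.001). Omitting high-fat diet libraries 1 and 4 lost the call on Wfdc18, Hba-a1, Hbb-bs, Hbb-bt, Lep and Cidec (adjusted p = 0.091 to 0.250), and without corticosterone libraries 3 and 4 that on Wfdc18, Hba-a1, Hbb-bs, Hbb-bt and Lep was lost (adjusted p = 0.065 to 0.795). Leaving out 1 library was enough to lose Wfdc18 (corticosterone 3 or 4 or high-fat diet 1, 2, 3 or 4), Hba-a1 (corticosterone 1, 3 or 4 or high-fat diet 2 or 4), Hbb-bs (corticosterone 3) and Lep (high-fat diet 4), with an adjusted p of up to 0.116.

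In control mice the same contrast gave 2097 genes higher (10.6%) and 2807 lower (14.2%), or 24.9% in all, with a median of -0.05. Of the genes called in FMRKO mice, 80.3% of the higher and 79.8% of the lower ones were called in control mice in the same direction, which were 54.9% and 47.6% of the calls in control mice. None was called in opposite directions, and 3085 of 3108 had the same sign. The 2 contrasts share no library. Across genes, which are not independent replicates, the log2 fold changes had a Pearson's r of 0.72 and a Spearman's rho of 0.70. Hsd11b1 in control mice had 774, 395, 427 and 763 CPM with corticosterone, against 45.8, 44, 59.6 and 41.3 CPM on the high-fat diet (log2 fold change 3.63 ± 0.27, adjusted p = 4.9e-08). Scd1 had 8551, 16970.3, 12440 and 8624 CPM with corticosterone, against 119728, 108946, 101106 and 52456 CPM on the high-fat diet in control mice (log2 fold change -3.04 ± 0.35, adjusted p = 5.1e-06). Mest had 52.4, 91.8, 152 and 40.9 CPM with corticosterone, against 698, 1052, 1169.9 and 778 CPM on the high-fat diet in control mice (log2 fold change -3.46 ± 0.40, adjusted p = 4.8e-06). The groups were separate in each, as in FMRKO mice. The number of lower calls in control mice was 1656 to 2702 when 1 library was left out, the lowest without high-fat diet control library 4. In that library the lymph node list, with Ighm, summed to 1938.9 CPM, against 625.5, 338.0 and 435.8 CPM in high-fat diet control libraries 1 to 3. In control mice 18 of 19 lymph node markers were called lower (14.2% of all genes), with a median of -6.21. Muscle markers summed to 2426.1 CPM in corticosterone control library 2. The part of these transcripts in the control counts was not tested.

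**Figure D5:**
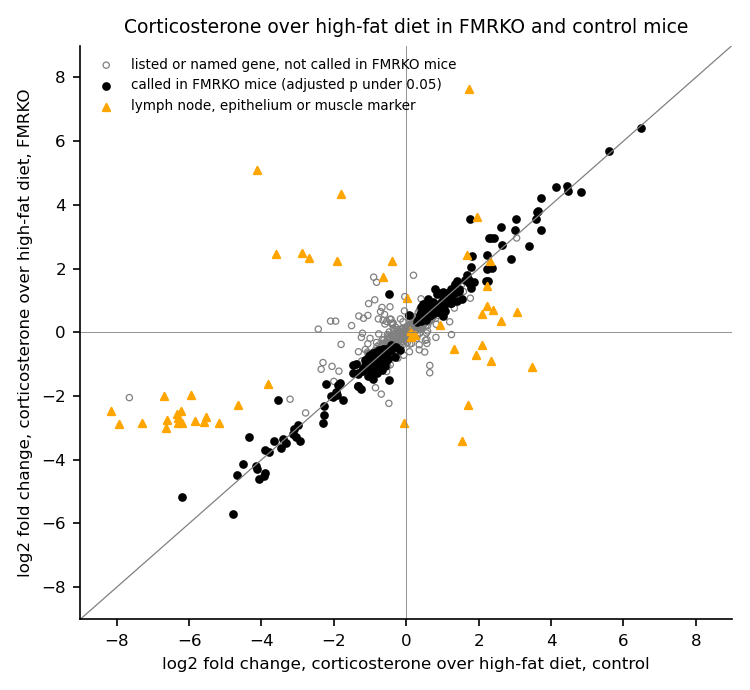
Log2 fold change of corticosterone over high-fat diet in FMRKO mice (y axis) against that in control mice (x axis) for the listed and named genes, with the line of equal values. Genes called in FMRKO mice (filled) lie mostly near the line, while many markers of lymph node, epithelium and muscle (triangles) lie far from it.

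The difference of the contrast between the genotypes was tested directly, and 0 genes passed in edgeR in either direction (0%), with 636 at an unadjusted p under 0.05. DESeq2 called 1, Ltf, lactoferrin of milk and secretions, chosen here after its value was seen. Ltf had 0.0736, 0.574, 43.3 and 16.9 CPM with corticosterone, against 0.0703, 0.086, 0 and 0.188 CPM on the high-fat diet in FMRKO mice. In control mice Ltf had 0, 0, 0 and 0 CPM with corticosterone, against 0, 0.795, 0.139 and 2.92 CPM on the high-fat diet. It was high in corticosterone FMRKO libraries 3 and 4, the ones rich in epithelial markers. The difference, FMRKO minus control, was 0.19 ± 0.34 for Hsd11b1, -0.27 ± 0.46 for Scd1 and 0.27 ± 0.44 for Fkbp5 on the log2 scale (adjusted p = 1.000 each). Map7d2 had the largest difference among the genes named by their fold or abundance, 1.8 ± 0.75 on the log2 scale (adjusted p = 1.000). Missing the threshold does not show that the genotypes responded alike.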

How the data were processed

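Total RNA of inguinal fat was sequenced after ribosomal RNA depletion. The authors deposited whole-gene counts per library, per the file headers, with CPM and RPKM beside them. Recomputing the deposited CPM and RPKM from the counts and gene lengths gave the same values, and only the counts were tested. The submitters' processing notes name GRCm38, STAR 2.5.1a, Subread and featureCounts 1.4.6p-5. How strand and multi-mapping reads were handled, and with which annotation release, the sources used here do not say, so near-identical, overlapping and antisense genes are uncertain.

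Counts were fitted with edgeR 4.0.16 (R 4.3.3): TMM scaling, filterByExpr with a minimum count of 10, 1 mean for each of the 6 groups of 24 libraries, and two-sided quasi-likelihood tests. The 6 groups were corticosterone, high-fat diet and chow, each in FMRKO and control mice. P-values were adjusted by Benjamini-Hochberg over 19717 genes with a threshold of 0.05. Standard errors were derived from the F statistic. The biological coefficient of variation was 33.7%, with 18 residual degrees of freedom. CPM in the text are TMM-normalised; the deposited CPM are not. DESeq2 1.42.0, its size factors in edgeR, no count filter, the 8 libraries alone and libraries left out were the alternatives. Symbols came from a mouse annotation (97.3% of 41388 genes). Sequences came from RefSeq. Genes were named from lists, or as the 15 per direction with the largest fold change and the 5 with the largest difference of mean CPM among genes that kept their call without the library pairs rich in lymph node or epithelial transcripts and did not overlap between groups. The 15 also averaged at least 5 CPM in the higher group, and both sets held protein-coding genes. Members and lists were chosen with earlier results of these data known. Values of some list members are not reported here; counts and medians of lists include them.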

Additional observations from a re-analysis of the deposited data

Results flagged for a closer look

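For each gene named in the text, the 4 libraries of each group were searched for a library far from the other 3, by the gap to its nearest neighbour as a share of the group's range (log2 of CPM + 0.5). Of 508 groups of 4, 25 (4.92%) had a share above Dixon's 95% critical value, and chance flags about 1 in 20 groups. High-fat diet FMRKO library 4 stood apart as the lowest of its group in Acaa2 (54.9 CPM, share 0.976), Atf4 (82.9 CPM, share 0.914), Bhlhe41 (18 CPM, share 0.837), Dbp (19.3 CPM, share 0.867), Fads2 (14.9 CPM, share 0.895), Hk2 (73 CPM, share 0.939), Insr (141 CPM, share 0.885), Nr1d1 (157 CPM, share 0.835), Pmvk (38.5 CPM, share 0.846) and Robo4 (52.6 CPM, share 0.905). Corticosterone FMRKO library 2 stood apart as the highest of its group in Gbp2 (180 CPM, share 0.953), Igtp (125 CPM, share 0.986), Isg15 (46.3 CPM, share 0.921), Sdhb (151 CPM, share 0.838) and Usp18 (36.4 CPM, share 0.925). Corticosterone FMRKO library 2 stood apart as the lowest of its group in Col6a3 (323 CPM, share 0.905), P4ha2 (30.7 CPM, share 0.933), Pdgfrb (54.8 CPM, share 0.883) and Tek (20.8 CPM, share 0.88). Corticosterone FMRKO library 1 stood apart as the highest of its group in Gsta3 (155 CPM, share 0.89) and Robo4 (61 CPM, share 0.842). Corticosterone FMRKO library 1 stood apart as the lowest of its group in Gpnmb (118 CPM, share 0.844). Corticosterone FMRKO library 3 stood apart as the highest of its group in Cxcl14 (46.5 CPM, share 0.864). High-fat diet FMRKO library 2 stood apart as the lowest of its group in Plvap (90.1 CPM, share 0.947). High-fat diet FMRKO library 3 stood apart as the highest of its group in Cpt1a (182 CPM, share 0.865). Corticosterone library 2 accounted for 9 of these, among them the interferon-stimulated genes Igtp, Isg15, Gbp2 and Usp18, and high-fat diet library 4, the library richest in lymph node transcripts, for 10. What sets these libraries apart was not tested.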

How the results depend on the processing

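Of 205 genes named as called, 106 kept their call and direction under all alternatives tried, and 48 lost it when 1 library of the 8 was left out. The counts in FMRKO mice, 1434 higher and 1674 lower, became 624 higher without high-fat diet libraries 1 and 4, 928 lower without corticosterone libraries 3 and 4, and 383 higher and 743 lower without all 4, which leaves 2 libraries per group. Leaving out 1 library at a time gave 1251 to 1639 higher and 1184 to 1480 lower. The share of calls that were higher was 46.1% in the main fit, 35.6% without high-fat diet libraries 1 and 4, 53.9% without corticosterone libraries 3 and 4, 34.0% without all 4 and 54.0% without a count filter. DESeq2 called 1906 higher and 1986 lower, and the 8 libraries alone gave 2021 and 1817.

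Libraries with the same number in both groups did not deviate together (r = -0.23, -0.37, -0.17 and -0.24 in FMRKO mice), and those with different numbers ran from -0.26 to 0.37. The deviations in a group are taken from its own mean and so depend on each other. These values cannot settle whether the numbers pair the samples, which the labels do not say. With a replicate block on the 8 libraries alone, the counts were 1207 higher and 1093 lower, and in control mice 1324 higher and 1733 lower. Without the block the 8 control libraries alone gave 1850 and 2249. The main fit gave 2097 and 2807 in control mice, and leaving out 1 library gave 2097 to 2987 higher and 1656 to 2702 lower, the lowest being 1846 without corticosterone control library 1, 1794 without corticosterone control library 4 and 1656 without high-fat diet control library 4. For the difference between genotypes DESeq2 called 1 gene higher, against 0 in edgeR, and 0 in edgeR whichever library was left out.

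Sesn3 and Socs2 lost their call with DESeq2's size factors. Without a count filter, Acp5, Cidea, Ehhadh, Icam1, Me1, Pmvk, Sesn3 and Socs2 did, and with the 8 libraries alone Ccl8, Hba-a1, Icam1, Scnn1a and Socs2 did; with the block on these 8 libraries 21 calls were lost, 16 of them beyond those 5. Directions that turned round concern log2 fold changes that had not passed, apart from Wfdc18, which was -0.93 without corticosterone libraries 3 and 4 and -0.98 without all 4. With 1 library left out, the interferon-stimulated genes ran from -0.67 to 0.94 (Gbp2), -0.57 to 2.09 (Igtp), -0.58 to 1.92 (Isg15) and -0.46 to 0.82 (Usp18), each lowest without corticosterone library 2, and Gbp2 was -0.03 with the block. Cd79a was 1.71 without high-fat diet libraries 1 and 4 and 1.18 without all 4, where Cd3e was 0.37. Fos was -0.25 and -0.04 in these 2 settings. Tnf was 0.74 and 1.17 in them, 0.09 without corticosterone libraries 3 and 4 and -0.97 to 0.25 with 1 library left out. Fasn was 0.02 without a count filter and -0.11 to 0.16 with 1 library left out, and Ighm was -0.15 to 0.36. The cause of these changes was not tested.

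These totals of 23275622 to 34799132 counts leave a level of 1 CPM at about 30 counts, so genes near that level have wide errors. No treatment dose, age or untreated group enters the contrast.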
